A study of Mus musculus with 8 samples.

Results

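The insulin-like growth factor (IGF) genes described here were a list of 10 symbols out of 28001 features in the deposited matrices. The list was taken by name and not by a cut on values, but with earlier results of these data known. It held the ligands *Igf1* and *Igf2*, the receptors *Igf1r* and *Igf2r*, and the binding protein genes *Igfbp2*, *Igfbp3*, *Igfbp4*, *Igfbp5*, *Igfbp6* and *Igfbp7*. All 10 were found once in each of 8 single-cell RNA-seq libraries of the embryonic mouse forelimb. In each library, unique molecular identifiers (UMIs, which count captured RNA molecules) were summed over cells with at least 3000 UMIs and at most 10% mitochondrial UMIs. Levels are given as CPM, a gene's UMIs per 1000000 UMIs of the sum.

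All embryos were of the C57BL/6J strain and had a tamoxifen-dependent Cre at both copies of *Hic1*, the gene of a transcriptional repressor that marks a subset of limb mesenchymal progenitors (MPs), together with a tdTomato reporter at *Rosa26* that Cre switches on. At embryonic day 10 their mothers, over 7 weeks old, had received 7.5 mg tamoxifen by gavage; tdTomato+ cells were thus those that had expressed *Hic1* around that time and their progeny. There was 1 library of sorted tdTomato+ cells for each day from E11.5 to E14.5, 1 from a proximal segment of the E16.5 limb (distal stylopod, elbow and proximal zeugopod) and 1 from a distal E16.5 segment (distal zeugopod and autopod). A further pair of libraries, whole limb 1 and 2, was labelled as holding both tdTomato+ and tdTomato- cells of the E11.5 limb. Forelimbs of several embryos of both sexes were pooled for a library and cells positive for blood and endothelial surface markers had been sorted away. Every sorted stage or segment was therefore 1 library with no replicate, and only the E11.5 comparison could be tested.

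The libraries kept 3165 to 11109 cells at a median of 6788 to 18473 UMIs per cell, with the greater depth at E14.5 and E16.5, where the study had moved to a later version of the capture kit. Stage and kit could not be told apart between E13.5 and E14.5. *tdTomato* was at 430 to 1410 CPM in the sorted libraries, and *Hic1* at 23.8 to 38.0 CPM. In the whole limb libraries *tdTomato* was at 3.76 and 4.33 CPM and *Hic1* at 0.773 and 0.785 CPM, so they held little of the reporter transcript. By flow cytometry the study had counted tdTomato+ cells as a rare part of the E11.5 forelimb mesenchyme. *Prrx1*, a marker of limb mesenchyme, was at 235 to 702 CPM in all 8 libraries and *Ptprc*, which encodes the leukocyte antigen CD45, at 0.106 CPM or below. Between 0 and 8.49% of the cells of a library fell into myogenic-like, epithelial-like or other non-mesenchymal clusters and were left out. At E16.5 the proximal library carried more transcripts of 14 muscle fibre genes than the distal one (117 against 29.9 CPM, summed), and a cluster led by *Acta1*, *Tnnc2* and *Actc1* held 2605 proximal and 176 distal cells. Any pair of libraries shared at most 48 cell barcodes.

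IGF-I and IGF-II are secreted growth factors that signal through the IGF-I receptor tyrosine kinase and promote growth of the embryo and its skeleton. The IGF-II/mannose 6-phosphate receptor takes up IGF-II for degradation in lysosomes. Most of the ligand outside cells is held by binding proteins, which prolong its life, keep it from the receptor, or release it when proteases cut them. IGFBP7 binds IGFs only weakly and is also found in vessel walls.

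The levels in the sorted libraries moved in different ways for different genes. Over the 5 libraries of the time course, from E11.5 to the proximal E16.5 segment, 5 of 10 members were at least 2-fold higher at the end (*Igf1*, *Igf2r*, *Igfbp5*, *Igfbp6* and *Igfbp7*, as ratios of CPM + 1) and 1 was at least 2-fold lower (*Igf1r*). Among the 9199 genes that reached 10 CPM in either library, 12.3% were higher and 27.9% lower by this measure, 40.1% in either direction. The median log2 difference was 1.18 over the 10 members and -0.48 over all genes tested. These are comparisons of single libraries without a replicate check, and the intervals given beside ratios are exact 95% Poisson or conditional intervals that cover counting error only. The libraries up to E14.5 were of undivided forelimbs, so each comparison with proximal E16.5 cells also sets a segment against the whole forelimb.

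**Figure D1:**
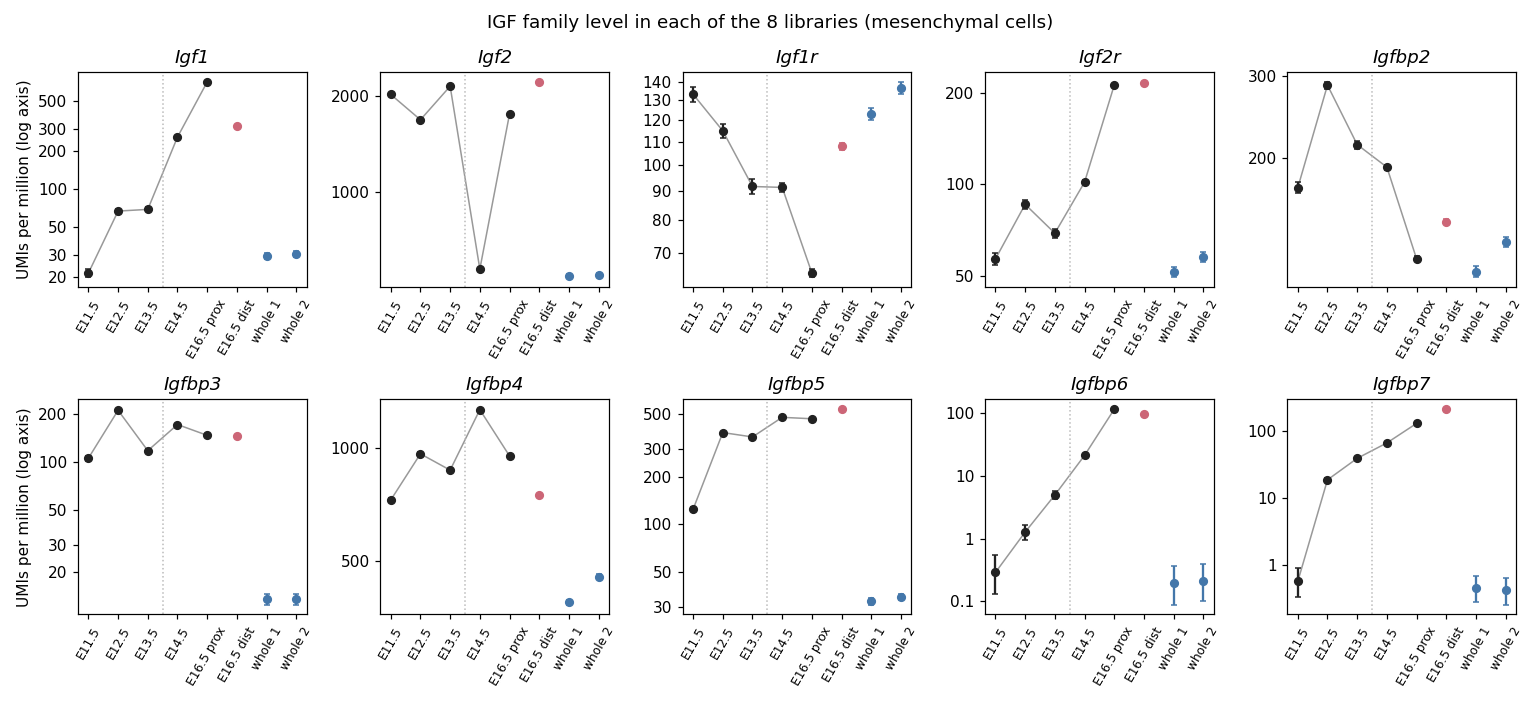
Levels of the 10 genes in each library. The horizontal axis lists the libraries and the vertical axis gives CPM on a log scale that differs between panels; black points joined by a line are the sorted time course with the proximal segment at E16.5, the red point is the distal E16.5 segment, blue points are the 2 whole limb libraries, bars are exact 95% Poisson intervals, and the dotted line marks the change of kit. *Igf1*, *Igfbp6* and *Igfbp7* climbed from E11.5 to E16.5, whereas *Igf2* was lowest among the sorted libraries at E14.5.

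*Igf1* (chr10:87858265-87937042, GRCm38) was at 21.3, 66.6, 68.7 and 259 CPM in the sorted libraries from E11.5 to E14.5, in order of stage, and at 713 in the proximal and 320 in the distal segment at E16.5. The whole limb libraries held 29.2 and 30.3 CPM. The level was thus 33.4-fold higher in proximal E16.5 cells than at E11.5 (31.0 to 36.1). It was reached in 3 steps of more than 2-fold, at E11.5 to E12.5 (3.12-fold), E13.5 to E14.5 (3.77-fold) and E14.5 to proximal E16.5 (2.75-fold). Between E12.5 and E13.5 there was a plateau (1.03-fold, 0.980 to 1.08). The last step held for the proximal segment only, as the distal segment, at 320 CPM, was closer to the 259 CPM of E14.5.

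*Igf2* (chr7:142650766-142666816), the paternally expressed fetal ligand, was at 2020, 1684 and 2143 CPM over the first 3 stages, 575 at E14.5, and 1756 and 2208 in the proximal and distal segments at E16.5. It was the only member that fell past 2-fold between neighbouring stages, to 0.269 of its E13.5 level at E14.5, and it rose 3.05-fold from there to the proximal E16.5 segment. The whole limb libraries held 549 and 552 CPM. *H19*, the maternally expressed non-coding RNA next to *Igf2*, had the same low point: it was at 2593, 2503 and 2255 CPM from E11.5 to E13.5, 1008 at E14.5, and 1707 and 2218 in the E16.5 segments. The E14.5 library is the first of the later kit, and the part of library, kit and stage in the E14.5 value was not tested.

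Of the receptors, *Igf1r* (chr7:67952827-68233668) declined from 133 CPM at E11.5 through 115, 91.7 and 91.4 to 64.7 in the proximal segment at E16.5, a ratio of 0.486 (0.469 to 0.503), while the distal segment was at 108 CPM. The decline lay near the 2-fold limit and did not pass it when the libraries were scaled by TMM (log2 difference -0.67), under which the median of all genes moved up by 0.35 and 52.2% rather than 30.6% of calls were higher at E16.5. It also fell short with ribosomal protein, mitochondrial and haemoglobin genes left out of the CPM, where that median moved up by 0.10. *Igf2r* (chr17:12682406-12769664) was at 56.9, 85.9, 69.1 and 102 CPM from E11.5 to E14.5 and at 212 and 215 in the E16.5 segments. It was 3.72-fold higher in the proximal segment than at E11.5 (3.55 to 3.90), with its largest step after E14.5 (2.08-fold), and the segments were close to each other (distal over proximal 1.02, 1.00 to 1.03).

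The binding protein genes differed in when they appeared. *Igfbp6* (chr15:102144362-102149511) and *Igfbp7* (chr5:77349240-77408041) were next to absent at E11.5, with 9 and 18 UMIs in the sorted library. *Igfbp6* was at 0.287, 1.27, 4.93 and 21.1 CPM from E11.5 to E14.5 and at 115 and 95.8 in the proximal and distal segments. *Igfbp7* was at 0.575, 18.8, 39.3 and 66.6 CPM and then 130 and 212. Proximal E16.5 cells were 401-fold (211 to 876) and 226-fold (143 to 382) above E11.5 for these genes, the wide intervals coming from the few UMIs at E11.5. *Igfbp7* made its largest step first, 32.6-fold from E11.5 to E12.5 (20.5 to 55.4). As ratios of CPM, the *Igfbp6* steps were alike in size, at 4.41-fold (2.16 to 10.1), 3.90-fold (2.90 to 5.32), 4.28-fold and 5.45-fold in order of stage. The first 2 were at levels too low to be among the genes tested. All folds printed for these 2 genes leave out the 1 CPM added for the 2-fold calls. That addition makes a rise from a level near 0 smaller.

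Since these genes shared a start close to 0, the 250 bases before their start sites are shown, from RefSeq on GRCm38.p6 and in the direction of transcription. Capitals mark matches on either strand to a GC box (GGGCGG, or CCGCCC on the other strand) or to a TATA box (TATAAA, or TTTATA), the only motifs searched. The first is *Igfbp6* at chr15:102143936-102144185, plus strand, and the second *Igfbp7* at chr5:77408046-77408295, minus strand.
Igfbp6: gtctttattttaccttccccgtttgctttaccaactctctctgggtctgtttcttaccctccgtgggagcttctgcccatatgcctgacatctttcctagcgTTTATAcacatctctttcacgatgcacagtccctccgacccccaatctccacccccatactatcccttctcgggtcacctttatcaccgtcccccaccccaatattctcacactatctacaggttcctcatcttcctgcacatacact
Igfbp7: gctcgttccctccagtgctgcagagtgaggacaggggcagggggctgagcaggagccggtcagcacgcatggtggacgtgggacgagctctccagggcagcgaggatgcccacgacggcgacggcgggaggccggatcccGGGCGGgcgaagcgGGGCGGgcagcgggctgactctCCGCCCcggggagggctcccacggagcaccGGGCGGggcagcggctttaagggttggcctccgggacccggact
The *Igfbp6* window held 49.6% G and C, 7 CpG dinucleotides, no GC box and 1 TATA box match on the reverse strand. The *Igfbp7* window held 74.0% G and C, 26 CpG, more than 90.4% of the 32851 RefSeq windows of this length, and 4 GC box matches with no TATA box. Over all windows the median was 6 CpG and 52.4% G and C, 32.7% held a GC box and 12.4% a TATA box. A match describes these letters only.

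The other binding protein genes were well measured from E11.5 on. *Igfbp5* (chr1:72857932-72874884) was at 124, 380, 357 and 475 CPM from E11.5 to E14.5, and at 465 and 533 in the proximal and distal E16.5 segments, so that its 3.75-fold difference over the course (3.63 to 3.87) was nearly all in place at E12.5 (3.06-fold). *Igfbp3* (chr11:7206086-7213923), the main carrier of IGFs in blood, was at 106, 212, 118, 173, 148 and 145 CPM in the same order. Its step from E11.5 to E12.5 was at the limit (2.01-fold, 1.93 to 2.09) and was under 2-fold in 7 of the alternative settings, TMM scaling among them.

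*Igfbp4* (chr11:99041244-99054392), a binding protein that PAPP-A cuts, lay between 728 and 1265 CPM in the sorted libraries and was highest at E14.5. *Igfbp2* (chr1:72824503-72852474), which lies next to *Igfbp5* on the opposite strand, lay between 121 and 286 CPM and was highest at E12.5. Neither passed 2-fold in any step.

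Between neighbouring stages, 4 members were at least 2-fold higher at E12.5 than at E11.5 (*Igf1*, *Igfbp3*, *Igfbp5*, *Igfbp7*; 2.08% of all genes tested), 1 at E13.5 than at E12.5 (*Igfbp7*, 2.09-fold; 1.38%), 2 at E14.5 than at E13.5 (*Igf1*, *Igfbp6*; 4.20%) with 1 lower (*Igf2*; 4.92%, 9.12% in either direction), and 4 in proximal E16.5 cells than at E14.5 (*Igf1*, *Igf2*, *Igf2r*, *Igfbp6*; 5.05%). Scaling by TMM raised the share of calls that were higher from 46.0% to 70.7% in the step to E14.5 and from 50.9% to 70.0% in the step to E16.5, moving the median of all genes by 0.21 and 0.19 on the log2 scale. The *Igfbp7* step from E12.5 to E13.5 was under 2-fold with TMM scaling, thinned cells or an offset of 5 CPM. The members listed for the steps to E14.5 and E16.5 passed under both scalings, and *Igfbp7* joined them in the last step under TMM. The *Igf2r* step from E14.5 to E16.5 dropped below 2-fold, to a log2 difference of 0.96, without the cluster led by muscle fibre genes, and to 0.86 with all filtered cells.

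At E11.5 the sorted tdTomato+ cells could be set against the whole limb, which asks how the *Hic1* lineage differed from the limb mesenchyme as a whole. Of the ligands *Igf2* was higher and *Igf1* lower in the sorted library, and 4 of 6 binding protein genes were higher: *Igfbp3* was at 106 CPM against 13.6 in both whole limb libraries, *Igf2* at 2020 against 549 and 552, and *Igfbp5* at 124 against 32.6 and 34.6. *Igf1* was at 21.3 CPM against 29.2 and 30.3. By edgeR's quasi-likelihood test with TMM scaling, 5 of 10 members were higher and 1 lower at an adjusted p under 0.05, where 53.4% of the 15025 genes tested passed (26.8% higher, 26.6% lower).

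The log2 differences (sorted minus whole limb, ± SE, edgeR with Benjamini-Hochberg adjustment) were 2.78 ± 0.11 for *Igfbp3* (adjusted p = 1.9e-135), 1.70 ± 0.097 for *Igfbp5* (adjusted p = 2.6e-66) and 1.69 ± 0.12 for *Igf2* (adjusted p = 1.7e-42). *Igfbp4*, at 728 against 389 and 456 CPM, differed by 0.60 ± 0.11 (adjusted p = 4.6e-07), and *Igfbp2*, at 172 against 114 and 132 CPM, by 0.31 ± 0.095 (adjusted p = 0.0032). *Igf1* differed by -0.66 ± 0.13 (adjusted p = 2.5e-06). The receptors did not pass: *Igf1r*, at 133 against 123 and 137 CPM, differed by -0.15 ± 0.096 (adjusted p = 0.20) and *Igf2r*, at 56.9 against 51.6 and 57.8 CPM, by -0.12 ± 0.10 (adjusted p = 0.32). *Igfbp6* and *Igfbp7* were under 1 CPM in all 3 libraries and a difference was not detectable at this depth (adjusted p = 0.71 and 0.73).

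**Figure D2:**
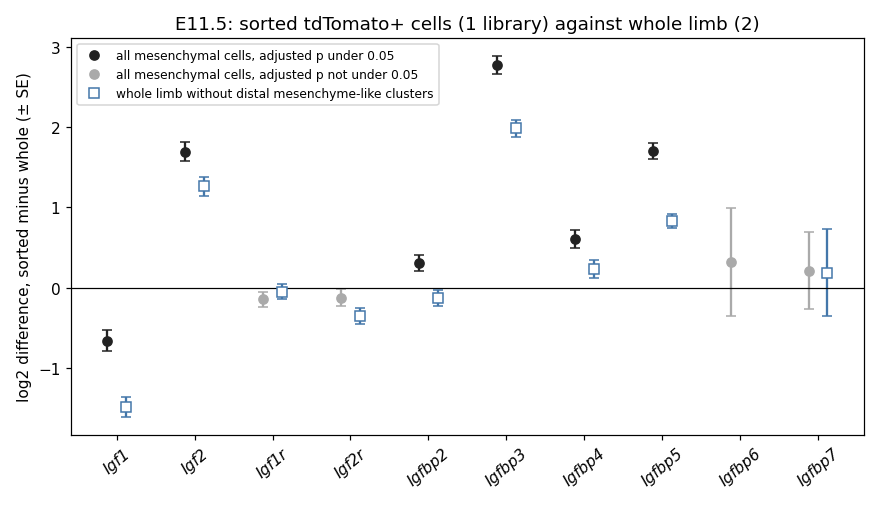
Sorted cells against the whole limb at E11.5. The vertical axis gives the log2 difference (sorted minus whole limb) for each gene on the horizontal axis; filled points are the edgeR estimates, black where the adjusted p was under 0.05 and grey where not, open squares the estimates without the whole limb cells of distal limb mesenchyme-like clusters (none for *Igfbp6*, which was filtered out), and bars standard errors. *Igfbp3*, *Igfbp5* and *Igf2* lay above 0 and *Igf1* below it in both sets, while *Igfbp2* changed sides.

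These p-values measure the spread between the whole limb libraries and take the lone sorted library to vary alike. Nothing in the labels ties the whole limb libraries to separate litters. The sorted library kept 74.2% of its barcodes, against 97.7% and 98.6% in the whole limb. The release that counted the whole limb reads is not given in the sources used here. Sorting therefore cannot be told apart from library preparation and processing. Summed UMIs alone cannot separate fewer cells that express a gene from less RNA per cell. At 3000 UMIs per cell, *Igfbp3* was found in 22.8% of sorted mesenchymal cells against 3.94% and 4.05% in the whole limb libraries. *Igfbp5* was found in 22.6% against 7.74% and 8.86%, and *Igf1* in 3.90% against 8.17% and 7.30%. Without TMM the calls of all genes were 68.6% higher rather than 50.2%, and *Igf1r* and *Igf2r* turned to 0.036 and 0.057, still not past the threshold. The 3 clusters in which the sorted library had at least 50 cells held no distal limb mesenchyme-like one, unlike the whole limb. With these clusters left out of the whole limb (47.8% of 14041 genes passed, 24.5% higher and 23.3% lower), the edgeR log2 differences were 1.99 for *Igfbp3*, 0.83 for *Igfbp5*, 1.27 for *Igf2* and -1.49 for *Igf1*, *Igfbp2* turned to -0.13 (adjusted p = 0.31), *Igfbp4* fell short at 0.23 (adjusted p = 0.095) and *Igf2r* passed at -0.35 (adjusted p = 0.0035). With every cell thinned to 3000 UMIs, *Igf1* differed by -1.17.

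Within the whole limb libraries the members were unevenly spread over 12 clusters, and both libraries gave the same extremes for the ligands. *Igf1* was highest in a cluster led by *Hoxc4*, *Irx3* and *Irx5* (99.95 and 90.1 CPM) and lowest in a distal limb mesenchyme-like cluster led by *Tfap2b*, *Hottip* and *Hoxd13* (1.26 and 0.984 CPM). *Igf2* was highest in a cluster led by *Sostdc1* and *Hgf* (1106 and 1012 CPM) and lowest in another distal limb mesenchyme-like cluster (160 and 171 CPM). The cluster led by *Sostdc1* and *Hgf* was also the highest for *Igfbp3* (93.3 and 71.8 CPM), which was at 7.62 and 6.04 CPM in the median cluster. *Igfbp5* was highest in a cluster led by *Pax1* and *Dusp2* (159 and 174 CPM), *Igfbp2* in that of *Hoxc4*, *Irx3* and *Irx5* (260 and 302 CPM), *Igfbp4* in one led by *Pcdh8*, *Tbx3os1* and *Lum* (961 and 1106 CPM), and *Igf1r* in a chondrocyte-like cluster (170 and 202 CPM).

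Clusters were formed without the members and the other IGF genes, so no member had shaped them. They are called "-like" by marker genes and otherwise by their leading genes. At E12.5 a cluster led by *Lgr5*, *Tac2* and *Sostdc1* (375 cells) stood out for 2 members, with *Igf1* at 391 CPM against a median of 36.7 over the 13 clusters and *Igfbp3* at 704 CPM against 140. A cluster led by *Stmn2*, *Crtac1* and *Aldh1a3* (540 cells) followed for *Igfbp3* at 584 CPM. *Igfbp7* at E12.5 was concentrated in 249 cells led by *Zeb2os*, *Tek* and *Zeb2*, at 259 CPM (237 to 282), with a median of 7.12 over the clusters.

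Markers of other cell types were also higher in this cluster. A list of 8 endothelial genes, *Tek* among them, summed to 144 CPM in it against 37.1 in the other cells, with 5 of 8 genes at least 2-fold higher and none at 0. A list of 10 pericyte genes summed to 150 CPM against 80.5, with 3 genes at least 2-fold higher (*Kcnj8*, *Tagln* and *Mcam*) and 2 at 0. Both counts take only genes that reached 10 CPM in the cluster. UMIs of 4 of the endothelial genes (*Cdh5*, *Emcn*, *Kdr* and *Cldn5*, chosen after values were seen) were found in 5 of the 249 cells, where *Igfbp7* was at 46.2 CPM (12.6 to 118), against 268 (245 to 293) in the 244 cells without one. The lower value rests on 4 *Igfbp7* UMIs. Over the whole cluster these genes were at 13.6 (*Cdh5*), 15.6 (*Emcn*), 6.55 (*Kdr*) and 15.1 CPM (*Cldn5*), all of it from those 5 cells. A cell without such a UMI is not shown to lack them, and the part of vessel cells was not tested further.

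At E13.5 the highest cluster for both *Igfbp7* (266 CPM) and *Igfbp6* (23.7 CPM) was led by *Pcp4*, *Anxa1* and *Ppm1h*. The endothelial list summed to 57.2 CPM there against 48.8 in the other cells and the pericyte list to 72.6 against 60.2, with 1 gene of each at least 2-fold higher. *Igfbp7* was at 306 CPM (187 to 473) in its 6 cells with a UMI of the 4 genes and at 266 (249 to 283) in the other 499. At E14.5 both were highest in the osteogenic perichondrial-like cluster (*Pcp4*, *Runx2*), *Igfbp7* at 244 and *Igfbp6* at 95.1 CPM, where the endothelial list was at 44.7 against 38.5 CPM and the pericyte list at 62.5 against 123. *Igfbp7* was there at 258 CPM (197 to 332) in 13 cells with a UMI of the 4 genes and at 244 (234 to 254) in 663 without. Over all kept E14.5 cells it was higher in those with such a UMI (85.1 against 65.7 CPM). It was at 234 CPM in 21 cells with at least 2 of the genes. Over all kept cells at E12.5 and E13.5, *Igfbp7* was instead lower in those with such a UMI. It was at 7.11 CPM (2.86 to 14.7) against 19.04 at E12.5 and at 15.6 (11.1 to 21.3) against 40.6 at E13.5. Only 3 cells at E12.5 and 6 at E13.5 held at least 2 of the genes.

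**Figure D3:**
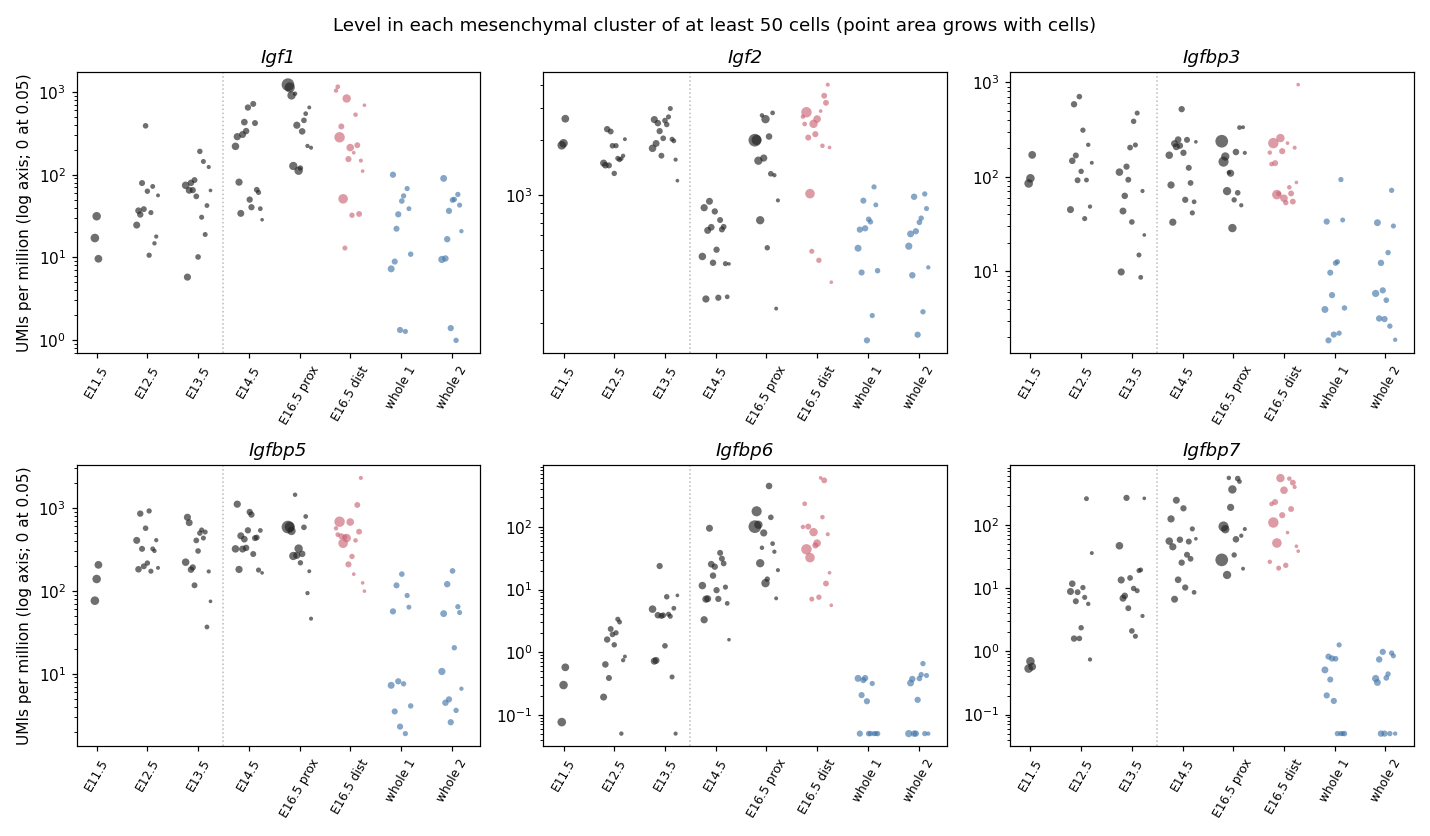
Spread of 6 genes over clusters. Each point is the level of 1 cluster of at least 50 cells in 1 library (horizontal axis), in CPM on a log vertical axis, with clusters at 0 drawn at 0.05 and larger points for more cells. *Igfbp7* reached 259 CPM in a single cluster at E12.5 while the median cluster held 7.12 CPM.

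In chondrocyte-like cells, *Igf1* was at 5.74 CPM (3.68 to 8.55) at E13.5 against 75.1 in the other cells of that library, and chondrocyte-like cells were the lowest named type in both E16.5 segments, at 112 CPM proximally and 31.5 distally. At E14.5 they were not low, at 289 CPM (279 to 299) against 259 in the whole library, and dermal fibroblast-like cells were the lowest named type at 39.7 CPM. The highest named type for *Igfbp5* at E13.5 and E14.5 was chondrocyte-like cells, at 770 and 1108 CPM against 315 and 421 in the other cells. *Igfbp3* in chondrocyte-like cells was at 9.81 CPM at E13.5 against 129 in the others, and at 28.7 and 50.7 CPM in the E16.5 segments against 161 and 150.

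Dermal fibroblast-like cells held the highest *Igfbp2* of the named types at E13.5, E14.5 and proximal E16.5, at 373, 415 and 152 CPM against 198, 165 and 118 in the other cells. Unnamed clusters were higher at E13.5 (led by *Tbx3os1* at 509 CPM and *Dmrta1* at 398) and proximal E16.5 (*Btc* at 870 and *Acta1* at 161). Dermal fibroblast-like cells held the lowest *Igf2* of the named types at E14.5 and E16.5, at 275, 697 and 911 CPM. The lowest *Igfbp4* of the named types was there too, at 379, 182 and 272 CPM. Of the named types, *Igfbp7* was also lowest there in these 3 libraries, at 9.52, 16.9 and 46.3 CPM. Unnamed clusters were lower for *Igfbp7* at E14.5 (led by *Islr2*, 6.66 CPM) and distally (led by *Acta1*, 26.0 CPM). The mitotic-like cluster led by *Hist1h2ab*, pooled with another of its type, was lower distally for *Igfbp7* (22.9 CPM). It was also lower for *Igf2*, at 513 CPM proximally and 438 distally.

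Fibroblast-like cells were the highest named type for *Igfbp6* in both segments at E16.5, at 272 CPM proximally and 474 distally against 72.6 and 53.2 in the other cells. They were also the highest named type for *Igf1* at E14.5 (422 CPM) and in the proximal segment (870 CPM, from clusters at 1141 and 335), although 3 unnamed clusters at E14.5 (433 to 721 CPM) and the unnamed *Acta1*- and *Btc*-led clusters in the proximal segment (1234 and 959 CPM) were higher. They led the named types for *Igfbp4* too in these libraries (2236 and 1455 CPM). Pericyte-like cells were the highest named type for *Igfbp7* in both segments, at 538 CPM (523 to 553) proximally and 536 (516 to 557) distally, beside 551 and 547 CPM in the unnamed *Btc*-led cluster. Of the named types, the osteogenic perichondrial-like cells led *Igf2* at E14.5 and in both segments (922, 2814 and 4017 CPM). In both segments they also led *Igf1r* (78.7 CPM proximally and 268 distally), *Igfbp3* (331 and 203 CPM) and *Igfbp5* (788 and 2298 CPM). In the distal segment they led *Igf2r* (343 CPM, beside 342 in pericyte-like cells) and *Igfbp4* (1036 CPM). The dermal fibroblast-like cluster led by *Gal* and *Sox2*, pooled above with others of its type, was higher for *Igfbp3*, at 334 CPM proximally and 942 distally. The unnamed *Btc*-led cluster was higher for *Igfbp3* distally (256 CPM) and for *Igfbp5* proximally. For *Igf2r* distally the unnamed *Acta1*-led cluster was higher, at 426 CPM.

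The highest named type was at least 2-fold above the other cells of its library for 1 of 10 members at E13.5 (11.6% of genes tested), 4 at E14.5 (15.1%), 3 in the proximal segment (23.0%) and 4 in the distal one (24.2%). The E16.5 shares were thus close to or somewhat above those of all genes. The highest named type of the proximal segment depended on how cells were grouped: it was the same for 7 of 10 members at a clustering resolution of 0.5 and at 2, and for 4 when cells were classed by 3 markers each. At a resolution of 0.5, *Igfbp2* (873 CPM), *Igfbp4* (1683 CPM) and *Igfbp5* (1268 CPM) were highest in distal limb mesenchyme-like cells. At 2, *Igf1* was highest in mitotic-like cells (744 CPM) and *Igfbp4* (1264 CPM) and *Igfbp7* (489 CPM) in osteogenic perichondrial-like ones. By markers 6 members changed, among them *Igf2*, then highest in chondrocyte-like cells (2512 CPM), and *Igfbp2*, in early mesenchymal progenitor-like cells (133 CPM). All members counted as 2-fold were binding protein genes apart from *Igf1r* in the distal segment. These are single libraries with no test, and some named types drew on partly different clusters proximally and distally. The chondrocyte-like clusters led by *Matn1* (1047 proximal and 26 distal cells) and by *Sema3e* (3 and 429) were each mainly of 1 segment. The *Sp9*-led dermal fibroblast-like cluster (15 and 1410) and the *Spink6*-led fibroblast-like one (17 and 434) were mainly distal. Other dermal fibroblast- and fibroblast-like clusters at E16.5 held at least 50 cells of each segment. Of the clusters left out of the proximal segment, the epithelial-like one led by *Calm4* and *Krt1* carried the members at 0.045 to 0.17 of the mesenchymal level, while an unnamed one led by *Krt14* and *Krt5* was at 1.59 of it for *Igfbp2*, 1.47 for *Igfbp3* and 0.505 for *Igf1r*.

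**Figure D4:**
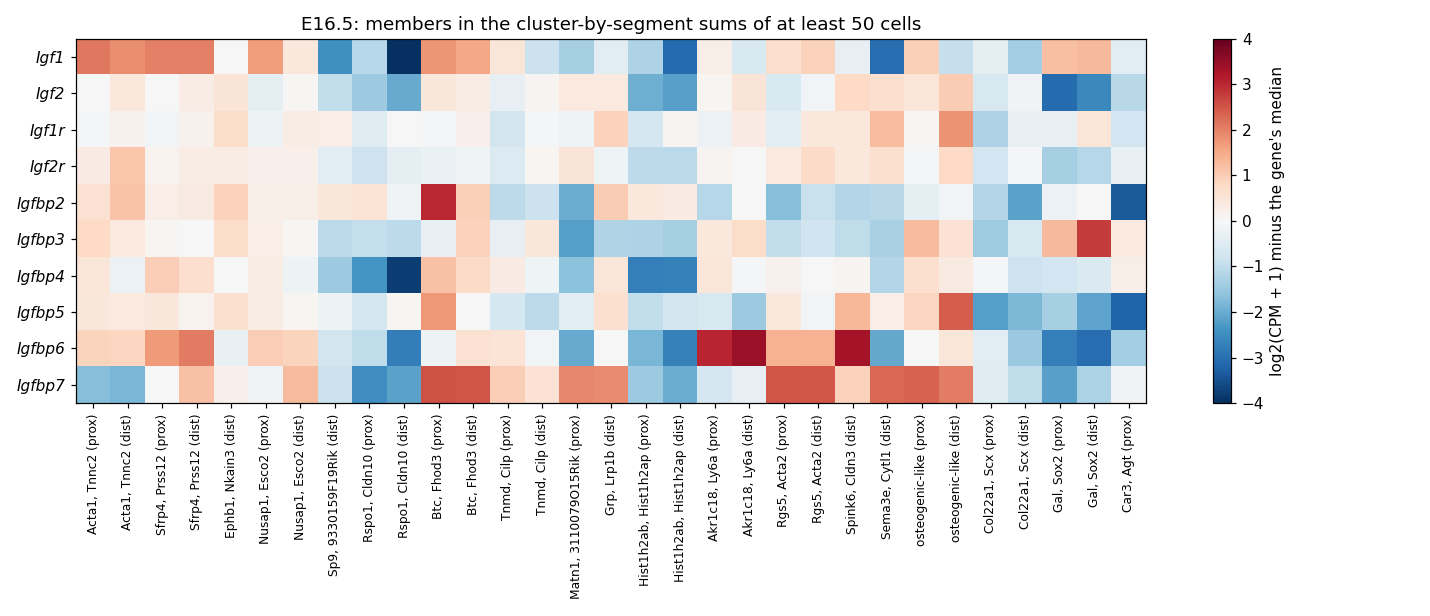
The 10 genes over E16.5 clusters. Columns are clusters of at least 50 cells in a segment, named by leading genes or, for the osteogenic perichondrial-like one, as osteogenic-like, rows are genes, and colour gives the log2 of CPM + 1 minus the gene's median over the columns, blue below and red above it. *Igf1* was lowest in the distal cells of the cluster led by *Rspo1*, at 12.9 CPM, and *Igfbp6* highest in the distal cells of the cluster led by *Akr1c18*, at 606 CPM.

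At E16.5 the distal and proximal segments differed past 2-fold for 1 of 10 members, *Igf1*, at 320 CPM distally against 713 proximally (ratio 0.449, 0.444 to 0.453). Of the 8380 genes tested, 1.72% were lower by this measure in the distal segment. The call was lost when the cluster led by muscle fibre genes was left out (log2 difference -0.87) and when all filtered cells were used (-0.95). The segments also differed in the software release that counted their reads (Cell Ranger 3.0.2 and 6.0.1), which cannot be told apart from position. *Igf1r* was 1.67-fold and *Igfbp7* 1.63-fold higher distally, short of 2-fold.

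Within the 12 clusters that held at least 50 cells of each segment, *Igf1* was lower distally in 9 and past 2-fold in 6, with a median ratio of 0.524 and a range from 0.101 to 1.17. The lowest ratio was in the dermal fibroblast-like cluster led by *Rspo1*, from 128 CPM proximally to 12.9 distally, and in the clusters led by *Acta1* (1234 and 1045 CPM) and by *Sfrp4* (1141 and 1164 CPM) *Igf1* was high in both segments. *Igf1r* was higher distally in 12 of 12 clusters, by 1.15- to 3.40-fold, and passed 2-fold only in the osteogenic perichondrial-like cluster (78.7 to 268 CPM). Over all genes and these clusters, 6.34% of values passed 2-fold (4.04% higher and 2.31% lower distally; 3.35% to 11.2% by cluster). *Igf2* was higher distally in 9 of 12 clusters and *Igf2r* in 10 (median ratio 1.23), in none past 2-fold. *Igfbp4* was lower distally in 10, past 2-fold in 1. No share over all genes was computed for these counts of clusters on 1 side. Between the whole segments, the median log2 difference of all genes tested was 0.084 in CPM, with 65.2% of calls higher distally. TMM scaling moved that median by -0.12 and gave 48.8% of calls higher.

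**Figure D5:**
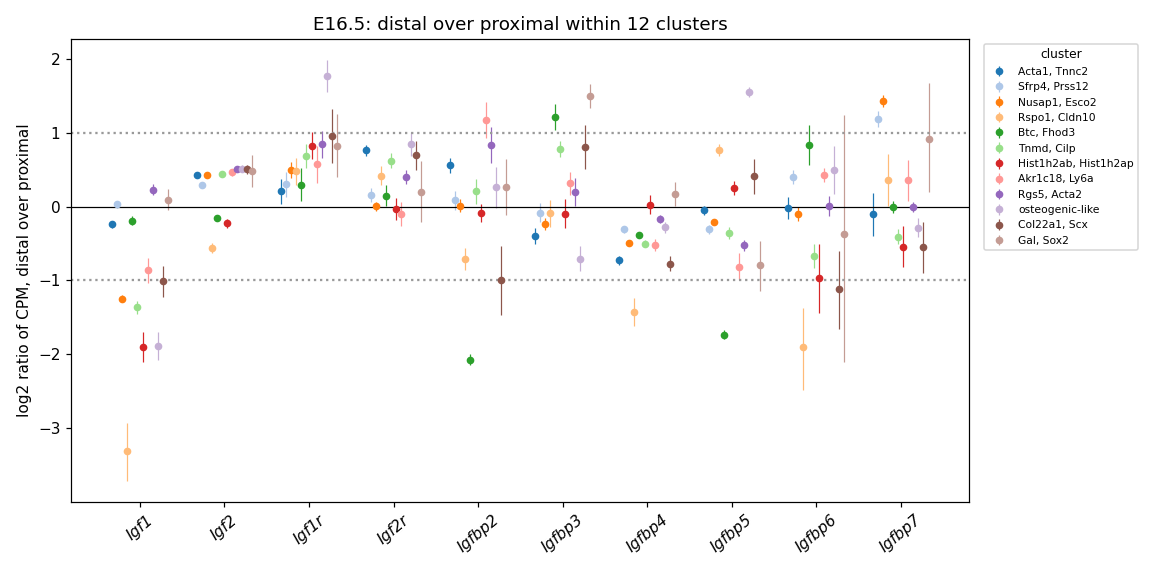
Distal against proximal cells within 12 E16.5 clusters. Each point is 1 cluster, coloured and named by its leading genes (the osteogenic perichondrial-like one as osteogenic-like); the horizontal axis lists the genes and the vertical axis gives the log2 ratio of CPM (distal over proximal), with exact 95% intervals as bars and dotted lines at a 2-fold difference. All 12 points of *Igf1r* lay above 0 and 9 of 12 of *Igf1* below it, whereas *Igfbp2* and *Igfbp5* had clusters past 2-fold on both sides.

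For the other members the difference between the segments depended on the cluster, and *Igfbp2* and *Igfbp5* passed 2-fold in both directions, in 1 cluster each way. *Igfbp7* passed 2-fold in the clusters led by *Sfrp4* (94.0 to 214 CPM) and by *Nusap1* (85.0 to 229 CPM), both higher distally. *Igfbp5* was 2.92-fold higher distally in the osteogenic perichondrial-like cluster (788 to 2298 CPM) but at 0.301 of its proximal level in a cluster led by *Btc*, *Fhod3* and *Grin2a* (1439 to 433 CPM). *Igfbp2* in the same *Btc*-led cluster went from 870 to 206 CPM. *Igfbp3* was 2.82-fold higher distally in a dermal fibroblast-like cluster led by *Gal* and *Sox2* (334 to 942 CPM) and 2.31-fold higher in the *Btc*-led cluster (111 to 256 CPM). *Igfbp6* was past 2-fold lower in 2 clusters.

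A list of 30 further genes of the IGF axis (other binding proteins, insulin receptor and adaptors, binding protein proteases and their inhibitors, downstream kinases, the *Igf2* locus and *Igf2* mRNA-binding proteins, and the growth hormone receptor) was followed beside the members. Of 23 tested between E11.5 and proximal E16.5, 3 were at least 2-fold higher and 4 lower, beside 12.3% and 27.9% of all genes, with a median log2 difference of -0.21. *Htra1*, a secreted protease that cuts binding proteins, was at 1.05 and 245 CPM, *Pappa2*, another such protease, at 0.0639 and 14.4 CPM, and the kinase gene *Akt1* at 70.1 and 209 CPM. *Igf2bp1*, *Igf2bp2* and *Igf2bp3*, whose products bind *Igf2* mRNA, were lower, at 322 and 74.8, 204 and 70.7, and 200 and 53.2 CPM, as was *Foxo1* at 55.8 and 17.3 CPM, a transcription factor held out of the nucleus by IGF signalling.

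At E11.5, 9 of 26 tested axis genes were higher and 5 lower in sorted cells than in the whole limb (edgeR, adjusted p under 0.05), beside 26.8% higher and 26.6% lower of all genes. The 6 largest rises were *H19* (log2 difference 1.39 ± 0.13), the receptor-binding adaptor *Grb14* (1.19 ± 0.26), *Stc1* (1.08 ± 0.14), the growth hormone receptor gene *Ghr* (1.08 ± 0.12), *Pik3r1* (0.83 ± 0.13) and *Foxo1* (0.55 ± 0.11). Those lower were *Igfbpl1* (-2.01 ± 0.37), *Stc2* (-1.01 ± 0.20), *Mtor* (-0.41 ± 0.15), *Igf2bp1* (-0.38 ± 0.11) and *Akt1* (-0.33 ± 0.097). *Stc1* and *Stc2*, whose products both inhibit the binding protein protease PAPP-A, thus moved in opposite directions. *Pappa* itself did not pass (-0.088 ± 0.21). Between the E16.5 segments, *Pappa* was the only axis gene past 2-fold of 24 tested, beside 3.22% of all genes higher and 1.72% lower distally, at 8.70 CPM proximally and 20.2 distally.

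Over the 31 cluster sums of the E16.5 segments, the gene whose log2 levels were most like those of *Igf2* was *H19* (Pearson r = 0.98), and for *Igf2r* it was *Airn* (r = 0.85), an antisense RNA that overlaps *Igf2r* and whose reads cannot be separated from it if strand was not used in counting. *Igf2* itself was the third most like *Igf2r* (r = 0.82). *Igf1* was most like *6330403K07Rik* (r = 0.84) and, among the members, *Igfbp4* (r = 0.78), while its r with *Igf1r* was -0.13. The closest for the others were *Smad7* for *Igf1r* (0.86), *Mapk8ip1* for *Igfbp4* (0.92), *Kdelc2* for *Igfbp6* (0.89), *Pdlim5* for *Igfbp7* (0.89), *Lsp1* for *Igfbp5* (0.73), *Zfp512b* for *Igfbp3* (0.72) and *Tmem119* for *Igfbp2* (0.69). These correlations are descriptions, as the sums come from 2 libraries and share their depth.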

How the data were processed

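The authors deposited raw UMI counts per gene and cell for 8 10x Genomics libraries, counted with Cell Ranger on a modified mm10 genome with 3 added features (release 3.0.2 or 6.0.1 in the file headers of the sorted libraries, not given in the sources used here for the whole limb). Per library, total counts ran from 32957305 to 236408650 UMIs. From these counts, cells with at least 3000 UMIs and at most 10% mitochondrial UMIs were clustered (scanpy 1.11.5; 2000 variable genes, 50 components, 25 neighbours, Leiden resolution 1), the E11.5 libraries together and the E16.5 segments together, leaving 70 genes out, members and IGF axis genes among them. Clusters named myogenic, epithelial, endothelial, immune, erythroid or glial, and a *Krt14*-led cluster added after seeing it, were left out. Scrublet's automatic threshold called at most 0.126% of cells, so the top 5% of scores were taken as doublets in an alternative. UMIs were summed per library; edgeR 4.0.16 (glmQLFTest, TMM, filterByExpr, adjusted p under 0.05) tested E11.5 on 1 residual degree of freedom, and its recovery was checked on simulated data. Elsewhere a 2-fold ratio of CPM + 1 among genes with 10 CPM was used. Alternatives were DESeq2 1.42.0, limma-voom 3.58.1, other scalings, filters, offsets, thinning and resolutions. All 10 members were named; of the axis list, up to 6 per direction with the largest changes past the threshold; for likeness, the 3 highest Pearson r, of which the first is given. Members and lists were chosen with earlier results of these data known.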

Additional observations from a re-analysis of the deposited data

Results flagged for a closer look

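In the whole limb libraries, cells left out of the main comparisons because their cluster was led by the muscle precursor genes *Lbx1*, *Myf5* and *Pax3* carried 2 binding protein genes above the mesenchymal level. *Igfbp2* was at 307 and 313 CPM in whole limb 1 and 2, against 114 and 132 in the mesenchyme, and *Igfbp3* at 120 and 128 CPM against 13.6 in both. *Igfbp4* was below it there, at 261 and 337 CPM against 389 and 456, and *Igfbp5* was at 1.14 and 1.19 of it.

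Between the E16.5 segments, the same gene moved in opposite directions in different clusters. *Igfbp2* was 2.25-fold higher distally in the fibroblast-like cluster led by *Akr1c18*, *Ly6a* and *Wnt2* (47.3 to 106 CPM) but at 0.237 of its proximal level in the *Btc*-led cluster. *Igfbp5* was 2.92-fold higher distally in the osteogenic perichondrial-like cluster and at 0.301 of its proximal level in the *Btc*-led cluster. With 1 library per segment, the difference between clusters was not tested.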

How the results depend on the processing

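Of the results that count members, 58 of 64 alternative values stayed within 1.5 times the main one. Of the values of single members, 359 stayed within their error or, at E11.5, on their side of the edgeR threshold, and 287 moved by more than that error, some of them across 2-fold. At E11.5, 5 values lost an edgeR call, 1 gained one and 1 reversed. The 1 member past 2-fold from E12.5 to E13.5, *Igfbp7*, became 0 with thinned cells, TMM scaling or an offset of 5 CPM. The 1 member past 2-fold between the E16.5 segments became 0 with all filtered cells, and without the cluster led by muscle fibre genes, a setting chosen after seeing the data. The 3 members at least 2-fold higher in a named type of the proximal segment became 5 at a Leiden resolution of 0.5. *Igfbp2* at E11.5 turned to -0.13 without distal limb mesenchyme-like clusters, and its call was lost with DESeq2 (0.29, adjusted p = 0.075), without a filter on low counts (0.30) and with all filtered cells (0.16). *Igfbp4* lost its call without that filter (0.59). Over all genes at E11.5, edgeR called 8030, DESeq2 4880 and edgeR without the filter 4112. The causes were not tested. Leaving out a whole limb library leaves no residual degree of freedom, so those values have no test and are log2 ratios of CPM + 1 without TMM. *Igf1* was then at -0.49 or -0.43, beside -0.48 by edgeR without TMM on all 3 libraries, and *Igfbp3* at 2.87 in both, beside 2.96. No paired analysis was possible because the groups compared share fewer than 2 replicate numbers. Depth limits *Igfbp6* and *Igfbp7* at E11.5, where few UMIs were counted.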
